A study of Mus musculus with 10 samples.

Results

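Alveolar type 2 cells make surfactant, a lipid film of mainly phosphatidylcholine that keeps the air spaces open. To do so they build fatty acids from citrate, lengthen and desaturate them, attach a choline head group and then remodel the tails so that saturated chains prevail. The 10 genes described here cover those steps: the transcription factor gene Srebf1; Acly, Fasn and Elovl1 for making and lengthening fatty acids; the desaturase genes Scd1 and Scd2; Chka and Pcyt1a for the choline head group; Lpcat1 for tail remodelling; and Acoxl, which encodes a protein related to the acyl-CoA oxidases of peroxisomes. They were chosen by symbol, with earlier results of these data known. All 10 are present among the 53342 genes of the deposited table and passed the filter on low counts. Their RNA was measured in whole lung, in which adipocytes, macrophages and other cells also make fatty acids, and in bulk tissue fewer cells of a type and less RNA per cell cannot be told apart.

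The study set 3 groups of whole lungs side by side, all labelled as female BALB/c mice aged 12 weeks. PBS, the control without allergen, has 4 libraries. HDM has 3 libraries from mice given house dust mite extract by the nose, 5 days in each week over 3 weeks, and its treatment label also names the solvent DMSO, which the PBS label does not. SF-3-030+HDM has 3 libraries from mice that received the same allergen, each dose preceded by 10 mg/kg of SF-3-030 by the nose with a lead of 30 min; the series title presents SF-3-030 as selective for certain functions of ERK1 and ERK2. No group with the compound alone is labelled, and the labels do not tie replicates to individual mice. A p-value thus measures only the spread between these samples, which may be partly technical. PBS and HDM each hold libraries with and without Y-linked RNA (below), so not all their replicates come from the same mouse. For SF-3-030+HDM this cannot be seen.

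Library totals ran from 38667118 to 59083942 expected counts. Several libraries went against their labels. Ddx3y, a Y-linked gene, stood at 20.4 to 31.5 CPM (expected counts scaled to a common library total) in PBS replicate 2 and HDM replicates 2 and 3, with Xist at 0.835 to 2.71 CPM, although every animal is labelled female. H2-Ea-ps, a class II histocompatibility gene that C57BL/6 mice do not express, stood between 331 and 432 CPM wherever the compound was given and between 0.107 and 0.953 CPM in the other 7 libraries. The near absence was thus in the PBS and HDM libraries, which are labelled BALB/c like the rest. Tpsab1 split the same way, at 11.9 to 15.4 CPM against at most 0.281 CPM. Trim12a split the opposite way, at 0.199 to 0.363 CPM in the compound's group against 18.7 to 30.6 CPM. The difference between the compound's group and the other groups therefore coincides with a difference in genes that vary between inbred strains, and the compound and that difference cannot be told apart. Background reads, summed over the olfactory and vomeronasal receptors, were highest in PBS replicates 1 and 4 and HDM replicate 3, up to 453 CPM, and lowest in SF-3-030+HDM, at 15.8 to 31.8 CPM.

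Sequence around start sites is shown first because 4 of the 10 genes were lower together in the compound's group. RefSeq start-site windows on GRCm38.p6, which is a C57BL/6J sequence, were matched by symbol for 8 of the 10 members, and not for Scd1 and Scd2. Each runs from 250 bases before to 50 after the start site. The RefSeq start of Acoxl, at 127854628, lies inside the gene as GENCODE places it, which begins at 127838876, so its window is not upstream of the whole gene. Capitals mark a CCAAT box (CCAAT, bound by NF-Y), a GC box (GGGCGG, bound by SP1), an E-box (CACGTG), the core site of the lung factor NKX2-1 (CAAGTG) or a sterol element (TCACCCCAC, the kind of site that SREBP proteins bind), each searched on both strands. The 4 genes that were lower have these windows, written 5′ to 3′ on the gene's strand: chr2:127854378-127854677 (plus) for Acoxl, chr4:118427843-118428142 (plus) for the upstream start of Elovl1, chr11:120824498-120824797 (minus) for Fasn and chr13:73466981-73467280 (plus) for Lpcat1.
Acoxl: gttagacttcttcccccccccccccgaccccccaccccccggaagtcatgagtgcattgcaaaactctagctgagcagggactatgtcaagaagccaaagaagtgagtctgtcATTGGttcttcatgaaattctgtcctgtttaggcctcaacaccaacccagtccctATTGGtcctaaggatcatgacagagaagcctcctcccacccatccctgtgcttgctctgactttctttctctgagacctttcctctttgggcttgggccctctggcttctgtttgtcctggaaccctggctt
Elovl1: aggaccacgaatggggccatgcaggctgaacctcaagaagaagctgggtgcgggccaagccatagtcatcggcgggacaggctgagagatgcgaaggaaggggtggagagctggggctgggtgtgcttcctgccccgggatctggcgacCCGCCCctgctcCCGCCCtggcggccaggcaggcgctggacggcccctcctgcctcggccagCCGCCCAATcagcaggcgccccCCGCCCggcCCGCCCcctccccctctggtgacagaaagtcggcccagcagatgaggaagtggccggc
Fasn: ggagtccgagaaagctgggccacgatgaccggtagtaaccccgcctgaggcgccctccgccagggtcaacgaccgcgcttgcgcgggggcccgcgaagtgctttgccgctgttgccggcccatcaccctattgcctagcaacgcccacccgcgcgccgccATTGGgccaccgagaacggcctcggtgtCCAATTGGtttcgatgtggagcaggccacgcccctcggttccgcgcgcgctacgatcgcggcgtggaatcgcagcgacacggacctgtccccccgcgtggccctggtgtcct
Lpcat1: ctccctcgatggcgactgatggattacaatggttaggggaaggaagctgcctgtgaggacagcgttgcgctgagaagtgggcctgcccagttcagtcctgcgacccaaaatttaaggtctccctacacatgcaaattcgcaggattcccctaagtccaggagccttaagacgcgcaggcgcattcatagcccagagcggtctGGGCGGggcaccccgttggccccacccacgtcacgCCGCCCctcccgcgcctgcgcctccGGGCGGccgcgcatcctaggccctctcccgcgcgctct

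The windows differed in what they hold. The CCAAT box occurred 2 times in Acoxl, 3 times in Fasn, where a pair overlaps in an inverted repeat, and 1 time in this Elovl1 window, where it overlaps a GC box; 37.4% of all 32851 windows of 300 bases hold at least 1. The GC box occurred 5 times in Elovl1 and 3 times in Lpcat1, against 35.7% of all windows with a match. Members that were not called hold the same boxes, so they do not mark the 4 lower genes. The Acly window has 1 CCAAT box and 4 GC boxes, that of Chka has 2 and 3, and Srebf1 has both kinds among its windows. None of the 4 windows shown holds the sterol element, which 0.551% of all windows do, nor the E-box (7.15%) or the NKX2-1 core (13.6%). The second Elovl1 window, chr4:118429451-118429750 (plus), is not shown. It holds 2 GC boxes and 1 NKX2-1 core, the latter at -139 from its start site. Among the 8 matched genes, Pcyt1a alone held the sterol element, at chr16:32430671-32430970 (plus), and it is shown for contrast as a gene that was not called. A match is a description of letters, and its absence says nothing of a factor's binding elsewhere.
Pcyt1a: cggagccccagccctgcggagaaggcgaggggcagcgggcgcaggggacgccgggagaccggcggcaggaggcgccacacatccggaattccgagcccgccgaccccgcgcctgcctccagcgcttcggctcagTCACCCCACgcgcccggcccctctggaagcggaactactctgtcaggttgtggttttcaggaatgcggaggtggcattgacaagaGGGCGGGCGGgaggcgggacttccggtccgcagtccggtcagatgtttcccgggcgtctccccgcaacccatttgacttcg

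Per transcript length, the desaturase Scd1 was the most abundant member and choline kinase the least. In PBS, mean TPM (expected counts divided by merged exon length, then scaled to a common total; computed here) was 1054 ± 534 (SD, n = 4) for Scd1, and the next gene, Elovl1, stood at 415 ± 47.9. Scd2 followed at 300 ± 99.7, Lpcat1 at 245 ± 48.2, Fasn at 153 ± 40.6, Acly at 111 ± 38.4, Acoxl at 67.6 ± 14.7, Srebf1 at 61.0 ± 17.4, Pcyt1a at 28.7 ± 6.86 and Chka at 11.0 ± 2.04. The ranges of mean ± SD of neighbours in this order overlapped for Elovl1 and Scd2, Scd2 and Lpcat1, Fasn and Acly, Acly and Acoxl, and Acoxl and Srebf1. In HDM the order of the first 6 was the same. In SF-3-030+HDM, Acoxl stood last at 5.74 ± 0.973 TPM (n = 3), below Chka at 12.3 ± 3.58, and Scd2 at 232 ± 48.6 stood above Elovl1 at 162 ± 15.2.

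**Figure D1:**
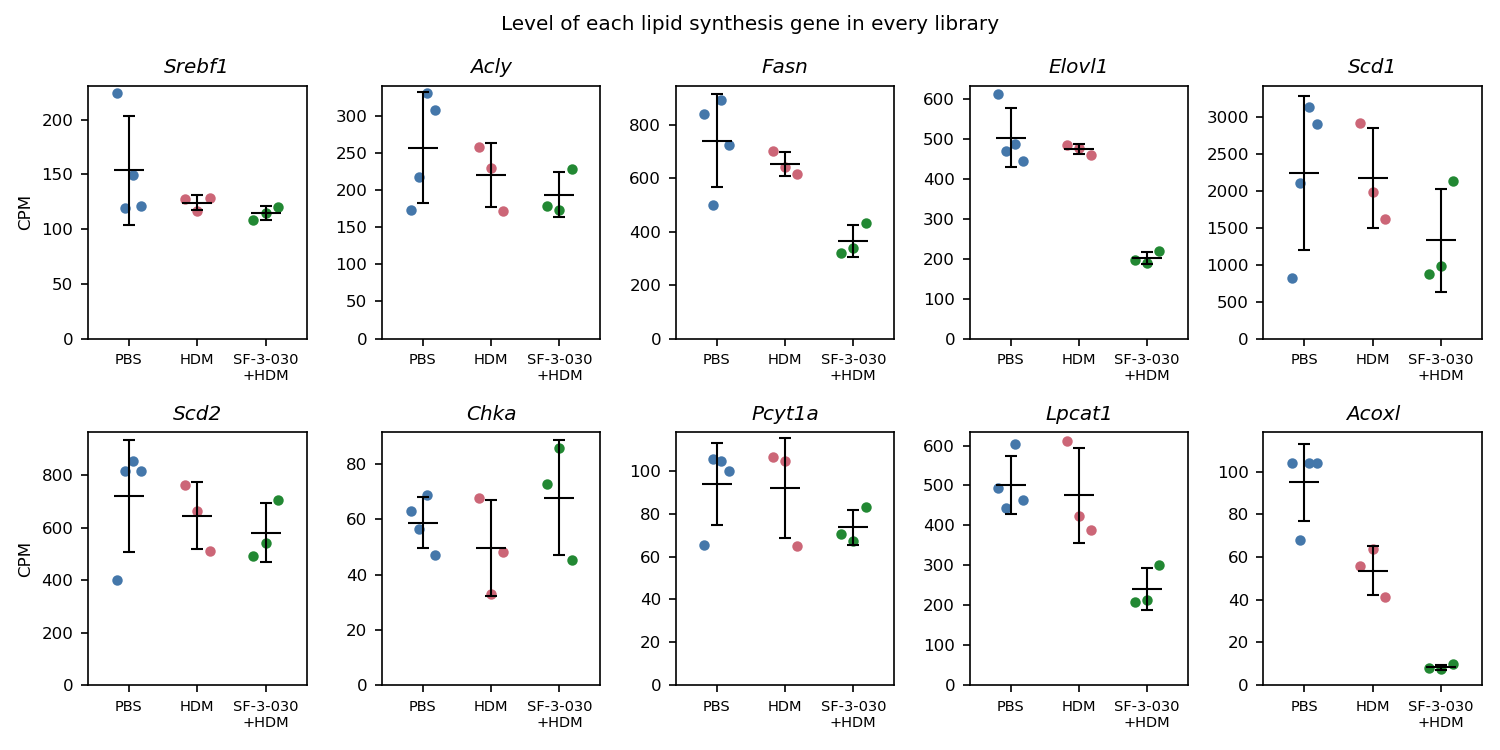
CPM of each of the 10 genes in every library (points), by group, with the mean and SD as black bars; every axis starts at 0. The SF-3-030+HDM points of Acoxl, Elovl1, Fasn and Lpcat1 lie below all points of the other groups, and the other 6 genes overlap. The share of all genes that stand apart in this way was not computed.

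HDM against PBS compares the allergen, with DMSO named in its label, with the control. edgeR's quasi-likelihood test called none of the 10 at an adjusted p under 0.05, beside 2.61% of all 26235 genes tested (2.32% higher and 0.294% lower). At an unadjusted edgeR p under 0.05 the count was 1, beside 2839 of the 26235 genes tested. DESeq2 also called 1 of the 10, beside 1466 genes in all, and limma-voom called 0 of the 10. Acoxl was the gene in both cases where there was 1. The members' median log2 fold change was -0.13, with 9 negative and 1 positive, while the median over all genes was -0.09.

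SF-3-030+HDM against HDM compares the group given compound and allergen with the group given allergen. The compound cannot be told apart here from the difference in strain-variable genes described above. Acoxl, Elovl1, Lpcat1 and Fasn were lower and the other 6 did not pass, so 40% of the members were called beside 9.49% of all genes tested (3.43% higher and 6.06% lower). The members were chosen with earlier results of these data known, so the gap between these shares is a description and not a test. The members' median log2 fold change was -0.52, with 9 negative and 1 positive, against -0.03 over all genes. Against PBS the same comparison used the same 3 SF-3-030+HDM libraries, so its values are not an independent repeat. It also called 4 lower and none higher, beside 29.9% of all genes (11.8% higher and 18.1% lower); the members' median was -0.55 and that of all genes -0.105. Upper-quartile scaling moved the median of all genes to -0.186 against HDM and to -0.307 against PBS, and there it called 6108 genes lower and 2256 higher, where the TMM scaling used here called 4741 lower and 3101 higher.

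**Figure D2:**
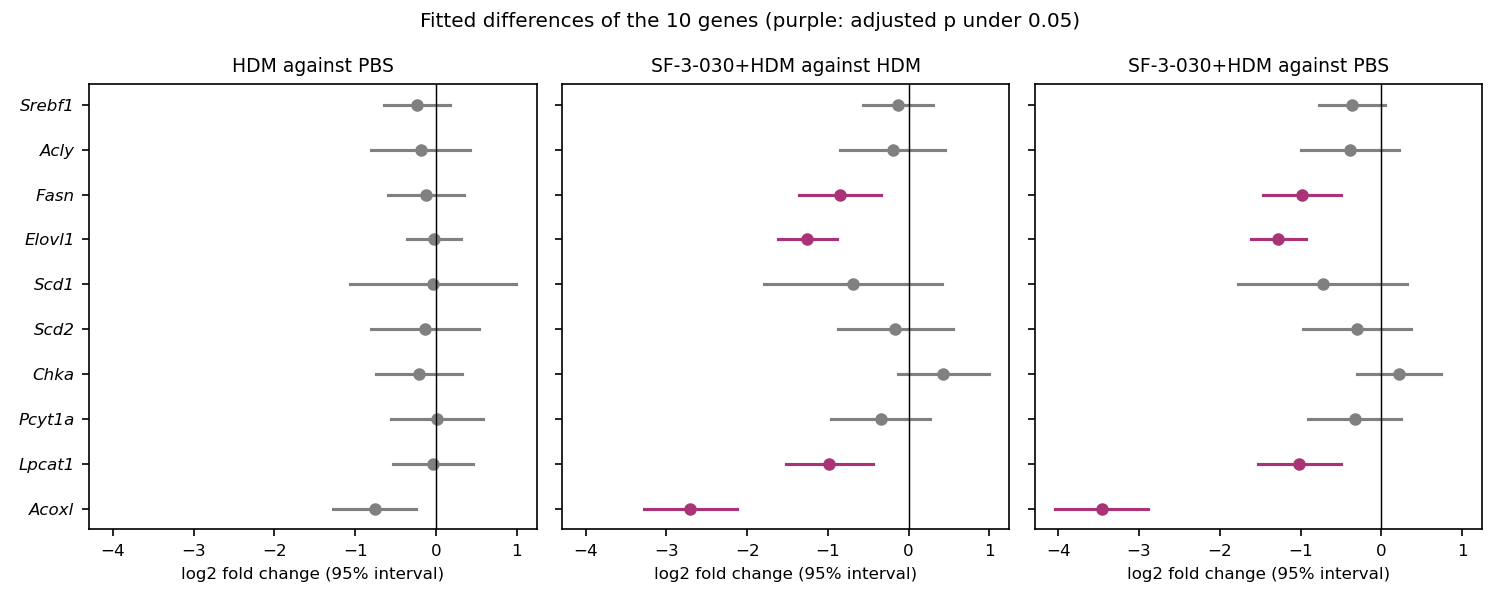
Log2 fold change of the 10 genes (points) with 95% intervals (lines) in the 3 comparisons, from the edgeR fit of all 10 libraries; purple marks an adjusted p under 0.05. Acoxl stands furthest from 0, at -2.71 against HDM and -3.46 against PBS, and no gene is purple in HDM against PBS.

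Srebf1 encodes the transcription factor SREBP-1, which turns on genes of fatty acid synthesis (ENSMUSG00000020538, chr11, 60199089 to 60222581, minus strand). Its levels were 225, 119, 149 and 122 CPM in PBS replicates 1 to 4, 127, 117 and 129 CPM in HDM, and 109, 115 and 121 CPM in SF-3-030+HDM. Apart from the high first PBS library, the 10 libraries lie close together and the groups overlap. The log2 fold change was -0.13 ± 0.20 (SE) for SF-3-030+HDM against HDM (edgeR adjusted p = 0.706, 95% interval -0.57 to 0.30) and -0.36 ± 0.19 against PBS (adjusted p = 0.162). Of its exon bases, 1.94% are shared with Rai1 on the other strand, and the strand setting of the counting is not given in the sources used here.

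Acly encodes ATP citrate lyase, which makes the acetyl-CoA that fatty acid synthesis starts from (ENSMUSG00000020917, chr11, 100476353 to 100528000, minus strand). It read 173, 218, 331 and 309 CPM in PBS, 258, 231 and 173 CPM in HDM, and 179, 174 and 229 CPM in SF-3-030+HDM. The 3 groups overlap. Its log2 fold change against HDM was -0.20 ± 0.30 (edgeR adjusted p = 0.706, interval -0.85 to 0.45).

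Fasn encodes fatty acid synthase, which builds palmitate, the main fatty acid of surfactant phosphatidylcholine (ENSMUSG00000025153, chr11, 120805846 to 120824547, minus strand). It read 840, 500, 893 and 725 CPM in PBS, 703, 642 and 615 CPM in HDM, and 321, 338 and 432 CPM in SF-3-030+HDM. Every SF-3-030+HDM library lies below every other library. Fasn was 1.81-fold lower than in HDM (log2 -0.86 ± 0.23, edgeR adjusted p = 0.0426) and 1.97-fold lower than in PBS (-0.98 ± 0.22, adjusted p = 0.00879). The call against HDM is fragile: it was lost without PBS replicate 4 (0.0563), HDM replicate 1 (0.076), 2 (0.119) or 3 (0.0722), or SF-3-030+HDM replicate 1 (0.16) or 2 (0.156), and that against PBS was lost without SF-3-030+HDM replicate 1 (0.0509). Without the 3 Y-linked libraries, which leaves 1 HDM library that is assumed to vary like the others, the log2 fold change against HDM was -0.88 (adjusted p = 0.234).

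Within a library, Fasn can be set against Acly, which supplies its substrate. The ratio of their CPM, which no scaling of libraries can change, ranged over 2.30 to 4.85 for PBS, 2.73 to 3.56 for HDM and 1.79 to 1.94 for the compound's group. The range in SF-3-030+HDM does not overlap the others. This ratio was chosen after the values were seen and was not tested.

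Elovl1 encodes an elongase that lengthens saturated and monounsaturated fatty acids to very long chains (ENSMUSG00000006390, chr4, 118428093 to 118432953, plus strand). It read 612, 471, 488 and 445 CPM in PBS, 486, 478 and 460 CPM in HDM, and 196, 190 and 219 CPM in SF-3-030+HDM. The 3 HDM libraries are tight, and the SF-3-030+HDM libraries stand clear of the other 7. Elovl1 was 2.38-fold lower than in HDM (log2 -1.25 ± 0.17, edgeR adjusted p = 0.00092) and 2.42-fold lower than in PBS (-1.27 ± 0.16, adjusted p = 0.000218). The first of these calls was lost at an adjusted p of 0.05002 without the 3 Y-linked libraries, and both kept their call without each single library. Cdc20 on the other strand shares 1.94% of its exon bases and reached at most 24.7 CPM.

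Scd1 and Scd2 encode stearoyl-CoA desaturases, which put a double bond into saturated fatty acids, and lie near each other on chromosome 19, with Scd4 between them (Scd1, ENSMUSG00000037071, 44394455 to 44407879, minus strand; Scd2, ENSMUSG00000025203, 44293674 to 44306864, plus strand). Scd1 read 820, 2105, 3141 and 2909 CPM in PBS, 2925, 1988 and 1615 CPM in HDM, and 880, 982 and 2136 CPM in SF-3-030+HDM. It had the widest spread of the 10 genes in PBS and SF-3-030+HDM, where the highest library was 3.83 and 2.43 times the lowest. Its log2 fold change against HDM was -0.69 ± 0.51 (edgeR adjusted p = 0.4, interval -1.79 to 0.42), so neither a marked fall nor a small rise lies outside the interval.

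Scd2 read 399, 814, 854 and 814 CPM in PBS, 762, 663 and 509 CPM in HDM, and 492, 540 and 706 CPM in SF-3-030+HDM. PBS replicate 1 is the lowest library of both desaturases, and the groups overlap. Scd2 differed from HDM by -0.16 ± 0.33 on the log2 scale (edgeR adjusted p = 0.782, interval -0.88 to 0.55). The ratio of Scd1 to Scd2 CPM ranged over 2.05 to 3.68 for PBS, 3.00 to 3.84 for HDM and 1.79 to 3.03 for the compound's group. Of the 50-base words in their transcripts, 4.56% for Scd1 and 3.97% for Scd2 also occur in other genes, mostly in each other and in Scd3, so a small part of their reads is uncertain.

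Chka encodes choline kinase alpha, the first enzyme on the way from choline to phosphatidylcholine (ENSMUSG00000024843, chr19, 3851773 to 3894369, plus strand). It read 63.0, 56.4, 68.7 and 47.0 CPM in PBS, 67.8, 33.1 and 48.0 CPM in HDM, and 72.8, 85.7 and 45.1 CPM in SF-3-030+HDM. It was the single member with a positive estimate in both comparisons of SF-3-030+HDM, and the lowest of these libraries falls inside the HDM range. The log2 fold change against HDM was 0.43 ± 0.26 (edgeR adjusted p = 0.296, interval -0.13 to 1.00).

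Pcyt1a encodes the phosphocholine cytidyl transferase that sets the pace of phosphatidylcholine synthesis (ENSMUSG00000005615, chr16, 32430921 to 32475070, plus strand). It read 65.5, 106, 104 and 100.1 CPM in PBS, 106, 105 and 65.1 CPM in HDM, and 70.5, 67.3 and 83.0 CPM in SF-3-030+HDM. The lowest PBS and HDM libraries are below all 3 SF-3-030+HDM libraries. Its log2 fold change against HDM was -0.35 ± 0.28 (edgeR adjusted p = 0.451), and -0.58 (adjusted p = 0.0453) without the 3 libraries with the most receptor background, which include those lowest PBS and HDM libraries.

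Lpcat1 encodes the acyltransferase that puts palmitate back onto lysophosphatidylcholine and so makes the disaturated lipid of surfactant (ENSMUSG00000021608, chr13, 73467197 to 73516422, plus strand). It read 493, 444, 604 and 462 CPM in PBS, 612, 424 and 389 CPM in HDM, and 208, 213 and 301 CPM in SF-3-030+HDM. The SF-3-030+HDM libraries again lie below all others. Lpcat1 was 1.98-fold lower than in HDM (log2 -0.98 ± 0.25, edgeR adjusted p = 0.0336) and 2.02-fold lower than in PBS (-1.02 ± 0.23, adjusted p = 0.00964). It lost the call against HDM without HDM replicate 1 (0.0808) or 2 (0.0879) or SF-3-030+HDM replicate 1 (0.137) or 2 (0.137), and that against PBS without SF-3-030+HDM replicate 1 (0.0553) or 2 (0.0557). Without the 3 Y-linked libraries the log2 fold change against HDM was -1.27 (adjusted p = 0.0998).

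Acoxl encodes a protein named for its likeness to acyl-CoA oxidases, the enzymes that open fatty acid breakdown in peroxisomes (ENSMUSG00000027380, chr2, 127838876 to 128123873, plus strand). It read 104, 67.8, 104 and 104 CPM in PBS, 55.6, 63.9 and 41.3 CPM in HDM, and 7.85, 7.39 and 9.79 CPM in SF-3-030+HDM. The 3 groups do not overlap, and the step is far larger in the compound's group than between HDM and PBS. Acoxl was 6.53-fold lower than in HDM (log2 -2.71 ± 0.26, edgeR adjusted p = 0.000114) and 11.0-fold lower than in PBS (-3.46 ± 0.26, adjusted p = 9.04e-06), and both calls held under all 19 alternatives.

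HDM against PBS gave Acoxl the largest member estimate, -0.76 ± 0.23, which did not pass (edgeR adjusted p = 0.149; DESeq2 adjusted p = 0.0196). Over the 19 alternatives this adjusted p ran from 0.0196 to 0.626. None of the 50-base words of Acoxl transcripts occurs in another gene. Of the 10 tested genes within 250 kb of Acoxl, a window chosen with its values known, Mall was higher in SF-3-030+HDM than in HDM (log2 0.93, adjusted p = 0.048) and none was lower.

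**Figure D3:**
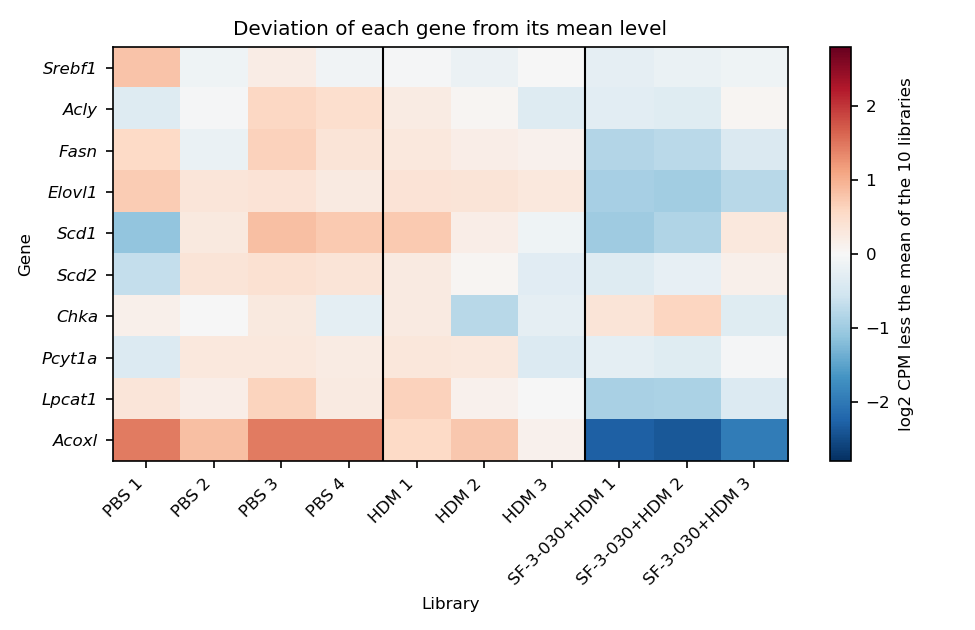
Log2 CPM of each gene (rows) less its mean over the 10 libraries, by library (columns), with black lines between groups. The deepest blue is Acoxl in the SF-3-030+HDM libraries, and PBS replicate 1 pairs a high Srebf1 with a low Scd1 and Scd2.

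Within groups, libraries moved on several genes at once. SF-3-030+HDM replicate 3 was the highest of its group for 9 of the 10 genes and the lowest for Chka. HDM replicate 1 was the highest for 8 and HDM replicate 3 the lowest for 8. PBS replicate 1 was the lowest for Scd1, Scd2, Acly and Pcyt1a and the highest for Srebf1, Elovl1 and Acoxl. The 10 genes summed to 2536, 2712 and 4283 CPM in SF-3-030+HDM, 6102, 4745 and 4045 CPM in HDM and 3794 to 6737 CPM in PBS. Scd1, which was not called, is the largest part of these sums in every library but PBS replicate 1. It read 880, 982 and 2136 CPM in SF-3-030+HDM and 2925, 1988 and 1615 CPM in HDM.

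Likeness over the 10 libraries was measured as the root mean square difference in log2 CPM after centring each gene, against 12047 protein-coding genes that average at least 5 CPM. The nearest gene outside the members was Tmem221 for Acoxl (0.41), Tbc1d2 for Elovl1 (0.11), Fbxo31 for Fasn (0.17), Ptprf for Lpcat1 (0.14) and Gpam, a glycerol-3-phosphate acyltransferase, for Scd1 (0.31). For the other members it was Pdxdc1 for Pcyt1a (0.06), Suds3 for Srebf1 (0.08), Nek9 for Acly (0.10), Zfp609 for Scd2 (0.10) and Ip6k2 for Chka (0.11). Fasn and Lpcat1 were each other's nearest member at 0.19, with 13 and 8 genes outside the members nearer. Several other members stood further from the set. Outside genes nearer than the nearest member numbered 6325 for Chka, 4663 for Srebf1, 173 for Acoxl and 129 for Acly. They numbered 77 for Pcyt1a, 56 for Elovl1, 32 for Scd2 and 8 for Scd1. All of these libraries share the group structure, and the values are descriptions.

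Other genes of fatty acid synthesis and elongation were mixed. In SF-3-030+HDM against HDM, 1 rose and 1 fell among 24 tested, where 3.43% of all genes were higher and 6.06% lower. The other 22 did not pass, and 12 estimates were negative and 12 positive, with a median log2 fold change of 0.05. The count called was 0 when SF-3-030+HDM replicate 1 or HDM replicate 2 was left out and 4 without PBS replicate 1. Acacb, the mitochondrial acetyl-CoA carboxylase, rose from 19.3 ± 2.17 to 35.9 ± 1.45 CPM (log2 0.87, edgeR adjusted p = 0.0118), and Elovl4, an elongase of very long chains at under 1 CPM, fell (-2.16, adjusted p = 0.0424). Acaca, the cytosolic carboxylase that feeds Fasn, stood at -0.51 ± 0.32 (adjusted p = 0.327), and Elovl6, which lengthens palmitate, at 0.62 ± 0.38 (adjusted p = 0.307). Acacb lost its call without HDM replicate 2 or SF-3-030+HDM replicate 1, and Elovl4 in 7 of the fits that leave out 1 library.

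Of the phosphatidylcholine genes beyond the members, edgeR called 0 of 24 against HDM, with a median of -0.01. That count rose to 5 without PBS replicate 1 and to 1 without HDM replicate 1, DESeq2 called 3 and limma-voom 0. Chpt1, which completes the lipid, stood at 0.08 ± 0.20 (edgeR adjusted p = 0.826) and Lpcat3, another acyltransferase, at 0.02 ± 0.18 (adjusted p = 0.958). Against PBS, 2 of the 24 were higher and 6 lower, where 29.9% of all genes were called, and the count fell to 2 without SF-3-030+HDM replicate 1 or 3. The lower genes were led by Prdx6, a phospholipase and peroxidase of surfactant recycling, which fell from 1408 ± 166 to 680 ± 61.9 CPM (log2 -1.03, adjusted p = 0.00291), with Lpin3 at -0.69 (adjusted p = 0.0118) and Pla2g1b at -0.64 (adjusted p = 0.0195). Agpat1 (0.47, adjusted p = 0.0363) and Lpcat2 (0.65, adjusted p = 0.0412) were the pair that was higher. In HDM against PBS, Lpcat2 rose (0.94, adjusted p = 0.0421) and 23 did not pass; this call was lost in 11 of the 19 alternatives, 7 of them fits that leave out 1 library. Prdx6 kept its call under all 19 alternatives; against PBS, Lpin3 lost it without SF-3-030+HDM replicate 3, Pla2g1b in 4 of the fits that leave out 1 library, and Agpat1 and Lpcat2 in 6 each.

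Genes that control SREBP and fatty acid transcription gave 0 of 17 called against HDM by edgeR and limma-voom and 1 by DESeq2, with a median of -0.24; without PBS replicate 1 edgeR called 1. Srebf2, the sterol partner of Srebf1, stood at -0.24 ± 0.19 (edgeR adjusted p = 0.439), Scap, the escort of SREBP, at -0.31 ± 0.20 (adjusted p = 0.34), and Insig1, which holds SREBP back, at 0.06 ± 0.25 (adjusted p = 0.904). Cholesterol synthesis, the other output of SREBP, had 0 of 21 called and a median of 0.05. Against PBS, where 29.9% of all genes were called, 1 control gene was higher, the coactivator gene Ppargc1b (1.55, adjusted p = 0.00387), and 4 were lower, among them the oxysterol receptor genes Nr1h3 (-0.79, adjusted p = 0.0152) and Nr1h2 (-0.63, adjusted p = 0.0223). Ppargc1b kept its call under all 19 alternatives, Nr1h3 lost it without SF-3-030+HDM replicate 1 or 2, and Nr1h2 without any one of the 3 SF-3-030+HDM libraries. The count of control genes called fell to 1 without SF-3-030+HDM replicate 1 or 2 and to 3 without PBS replicate 4. In the cholesterol list 1 of 21 was higher and 4 lower against PBS, a count that ran from 1, without SF-3-030+HDM replicate 1 or 2, to 8, without PBS replicate 1.

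Fatty acid oxidation genes are the family that Acoxl is named after. They had 1 of 20 called against HDM, beside 9.49% of all genes tested, and a median of -0.01. That gene was Acaa1a, a peroxisomal thiolase, which fell from 141 ± 7.76 to 86.4 ± 5.79 CPM (log2 -0.72, edgeR adjusted p = 0.0194; lost when HDM replicate 2, HDM replicate 3, SF-3-030+HDM replicate 1 or SF-3-030+HDM replicate 2 was left out). Among 18 genes of triglyceride storage and lipid uptake, 4 fell and 1 rose against HDM, with a median of -0.29; only 1 was called without HDM replicate 1 or 2 or without SF-3-030+HDM replicate 1 or 2. Fabp3, a fatty acid carrier, fell from 11.5 ± 1.03 to 3.79 ± 0.604 CPM (log2 -1.62, adjusted p = 0.00567) and kept its call under all alternatives, while Dgat2, which makes triglyceride (-1.17, adjusted p = 0.023), lost it in 5 of the fits that leave out 1 library.

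**Figure D4:**
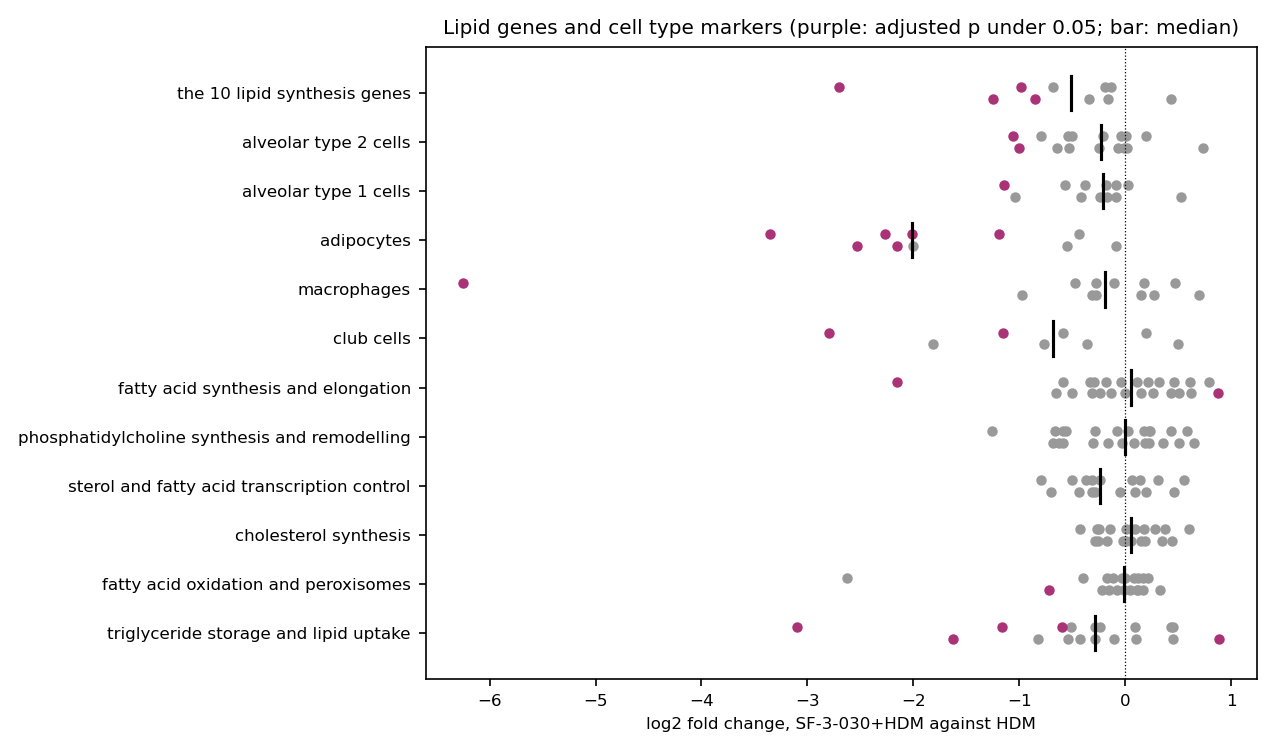
Log2 fold change of SF-3-030+HDM against HDM for the 10 genes and for each gene list (members left out), 1 point a gene, with the median as a black bar; purple marks an adjusted p under 0.05, and Lep, without reads in SF-3-030+HDM, is not drawn. The 10 genes have a median of -0.52, the adipocyte markers of -2.02 and the cholesterol genes of 0.05.

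Markers of the cells that could hold these RNAs moved as well, and their part in the results was not tested. Summed over 16 markers of alveolar type 2 cells, the level was 41460 to 53740 CPM in PBS, 40790 to 57890 CPM in HDM and 28740 to 37930 CPM in SF-3-030+HDM, and none of the markers was at 0. Most of that sum is Sftpc, the surfactant protein C gene, at 30520 ± 7950 CPM in HDM and 19640 ± 2980 CPM in SF-3-030+HDM (log2 -0.64, edgeR adjusted p = 0.084). Of the 16 estimates against HDM, 12 were negative and 4 positive, while 6.06% of all genes tested were called lower. Negative ones that did not pass included Rnase4 at -0.79 (edgeR adjusted p = 0.111) and Slc34a2 at -0.54 (adjusted p = 0.199). Among the positive ones were Abca3 at 0.01 (adjusted p = 0.976), Nkx2-1 at 0.01 (adjusted p = 0.989) and Cxcl15 at 0.73 (adjusted p = 0.099). Against HDM 2 of the 16 fell, with a median of -0.23 (none without the Y-linked libraries, 4 without PBS replicate 1): Sftpb, a surfactant protein gene, from 4500 ± 322 to 2191 ± 169 CPM (log2 -1.06, edgeR adjusted p = 0.00465) and Napsa, the protease that processes it (-1.003, adjusted p = 0.0129; lost without SF-3-030+HDM replicate 1 or 2). Set against this Sftpc-led sum of its own library, Acoxl was 0.221 to 0.273 CPM per 1000 CPM in SF-3-030+HDM and 0.714 to 1.45 in HDM, and Elovl1 5.67 to 6.83 and 7.96 to 11.9, so both ranges stayed apart. On that scale Fasn, at 10.1 to 11.4 and 10.6 to 17.2, and Lpcat1, at 6.36 to 7.94 and 6.72 to 15.0, overlapped between the 2 groups, while against PBS, at 12.1 to 19.5 for Fasn and 8.60 to 13.2 for Lpcat1, neither did. Srebf1 stood at 3.18 to 3.78 in SF-3-030+HDM on that scale, above the 2.22 to 3.13 of HDM and inside the 2.26 to 4.25 of PBS. The share of all genes that stand apart on this scale was not computed. These ranges are descriptions, and whether a change in cell numbers accounts for any of the differences was not tested.

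Adipocyte markers fell in 7 of 11 tested against HDM, with a median of -2.02, and Fasn, Scd1 and Acly are also adipocyte genes. The count was 3 without SF-3-030+HDM replicate 2, 4 without replicate 3 of that group and 3 with limma-voom; Cidec, Plin1 and Cfd kept their calls under all 19 alternatives, and Adipoq, Lep, Retn and Plin4 lost theirs without single libraries. The 12 markers summed to 140 to 249 CPM in PBS, 127 to 184 CPM in HDM and 78.5 to 99.5 CPM in SF-3-030+HDM. Adipoq, which defines the cells, read 3.07 ± 2.11 CPM in HDM and 0.648 ± 0.363 CPM in SF-3-030+HDM, and Lep had no read there. Macrophage markers, by contrast, gave 5 of 12 higher in HDM against PBS, and 1 lower in SF-3-030+HDM against HDM. They summed to 496 to 1487 CPM in PBS, 3666 to 4669 CPM in HDM and 3381 to 6015 CPM in SF-3-030+HDM. Most of that sum is Chil3, at 687 ± 398, 3519 ± 465 and 3971 ± 1128 CPM in that order. Alveolar type 1 markers summed to 9916 to 10760, 6404 to 7954 and 5333 to 6056 CPM in the same order, with 1 of 12 lower against HDM. Club cell markers summed to 27850 to 48150, 18140 to 24030 and 19370 to 24950 CPM, mostly from Scgb1a1, at 30820 ± 7356, 16090 ± 2495 and 18870 ± 2930 CPM. Against HDM 2 of the 8 club markers were lower, and 6 estimates were negative and 2 positive. Of all genes tested, 6.06% were lower in SF-3-030+HDM against HDM and 2.32% higher in HDM against PBS.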

How the data were processed

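Per the labels, RNA of whole mouse lung was enriched for mRNA and sequenced on an Illumina HiSeq. The submitters' processing notes name STAR 2.5.2b, Trimmomatic 0.36 and the build GRCm38. The counting tool, its annotation and its strand setting are not stated there. In the deposited table each library has a column of expected counts: 88.5% of filled cells are not whole at a tolerance of 0.001, and the 34.4% of blank cells were read as 0. The authors' normalised log2 columns beside them were not tested; for 11649 genes of 200 reads or more, subtracting a library factor and the gene's median from the log2 count returned them to an SD of 5.5e-07.

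Expected counts were rounded and fitted with edgeR 4.0.16 in R 4.3.3 (filterByExpr, TMM, quasi-likelihood, 1 term per group, all 10 libraries), with Benjamini-Hochberg adjustment over 26235 genes and a threshold of 0.05. Dividing a log2 fold change by the root of its F statistic gave the SE, and 95% intervals use the fit's degrees of freedom. CPM uses summed expected counts. Positions and exon lengths come from GENCODE M21, which holds 53237 of the 53342 identifiers. The script was tested on simulated counts. Other settings tried were DESeq2 1.42.0, limma-voom with limma 3.58.1, scaling by RLE or the upper quartile, no filter, fits of only the groups compared, the replicate block and fits without libraries. All members were named; up to 3 called genes per list and direction with the smallest p could be named, besides a short set of central genes. Marker genes named as examples were chosen after their values were seen. The members and lists were chosen with earlier results of these data known.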

Additional observations from a re-analysis of the deposited data

Results flagged for a closer look

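In 3 of the 10 genes, 1 PBS library stood far from the other 3, by the gap to its nearest neighbour as a share of the group's range, which passed Dixon's critical value for 4 samples. Acoxl had a share of 0.993, with PBS replicate 2, a Y-linked library, at 67.8 CPM and the others near 104 CPM. Scd2 had a share of 0.914, with PBS replicate 1 at 399 CPM and the others at 814 to 854 CPM. Pcyt1a had a share of 0.864, with the same library at 65.5 CPM and the others at 100.1 to 106 CPM. PBS replicate 1 is also one of the libraries with the most receptor background. Chance marks about 1 in 20 such groups; the groups of 3 were not examined in this way.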

How the results depend on the processing

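Both Acoxl calls in SF-3-030+HDM held under all 19 alternatives, with log2 fold changes of -2.91 to -2.48 against HDM and -3.67 to -3.35 against PBS. Of the 10 members, 4 were called against HDM, 2 with the replicate block, 1 without the Y-linked libraries and 2 to 4 without single libraries; against PBS it was 4, and 2 to 4 without single libraries. Without the high-background libraries it was 5 in both, with Pcyt1a gained (adjusted p = 0.0453 and 0.0415). In HDM against PBS, DESeq2 called 1 and the main test 0. Genes called in HDM against PBS numbered 685, and 1466 with DESeq2, 249 with the block, 250 without the Y-linked and 243 without the high-background libraries, and 303 to 913 without single libraries. Against HDM there were 2491, and 5303 with DESeq2, 1349 with limma-voom, 796 with the block, 543 without the Y-linked libraries and 629 to 3663 without single libraries. Against PBS there were 7842, and 4930 with limma-voom, 2632 with the block and 3893 to 8327 without single libraries. The cause was not tested. Replicate numbers gave no sign of a pairing: 9 same-numbered pairs correlated at -0.628 to 0.179. Of the 10 libraries, 1 correlated best with its own number, which PBS replicate 4, without a same-numbered partner, could not do. Signs turned only in HDM against PBS, where none of the turned values was called. Without the filter, Elovl1 was 0.0077 and Scd1 9.6e-05; with the 2 groups alone, Elovl1 0.0938, Scd1 0.0776 and Lpcat1 0.0796; without the high-background libraries, Elovl1 0.0434 and Lpcat1 0.00055. With limma-voom Scd1 was 0.14, with the block Scd1 0.39 and Scd2 0.0375, and with upper-quartile scaling Pcyt1a -0.0251. Without the Y-linked libraries, Scd1 was 0.31, Scd2 0.12, Lpcat1 0.22 and Chka 0.18. Leaving out single libraries gave -0.0894 to 0.0365 for Elovl1, -0.26 to 0.0268 for Fasn, -0.32 to 0.20 for Scd1, -0.35 to 0.0288 for Scd2, -0.22 to 0.11 for Lpcat1 and -0.16 to 0.23 for Pcyt1a.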
